A study of Mus musculus with 24 samples.

Results

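The genes *C3*, *C4b*, *C1ra*, *C1s1*, *Cfb*, *Serping1* and *C2*, which encode the central proteins of complement and the inhibitor of its first protease complex, were examined in heart, stomach, muscle and tongue samples from *Trex1*-KO mice with and without SN-011. They were chosen by symbol in GENCODE M21, and all 7 were found among the 54532 genes in the files. SN-011 is an antagonist of STING, the adaptor that passes on the signal of the cytosolic DNA sensor cGAS. All 24 samples came from *Trex1*-KO mice, which lack a DNA-degrading exonuclease and develop inflammation in many organs, so the controls carried the deletion too and no wild-type tissue was compared. In each tissue there were 3 control samples, labelled as untreated, and 3 SN-011 samples, labelled as given 5 mg/kg on 3 days a week for 4 weeks. The methods of the study describe a daily schedule of another dose and length in mice of 1 month, with vehicle for the controls. Samples were therefore grouped by tissue and treatment alone, on which both sources are the same. Nothing in the labels says whether samples of different tissues came from the same animals, so the p-values below measure the spread between these samples.

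Complement is a cascade of plasma proteins that marks surfaces for removal and recruits inflammatory cells. Of the proteases C1r and C1s, bound to C1q on antibody, C1s cuts C4 and C2 to form the classical C3 convertase. Factor B forms the convertase of the alternative pathway, and both convertases cut C3. C1 inhibitor, the product of *Serping1*, blocks C1r and C1s. The liver makes most of the circulating proteins, but fibroblasts, macrophages and epithelia also make them locally, and several of the genes respond to interferons and to NF-kB. Complement deposition and deficiency of early components are both known in lupus.

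*C3* (ENSMUSG00000024164), *C4b* (ENSMUSG00000073418), *Cfb* (ENSMUSG00000090231) and *C2* (ENSMUSG00000024371) lie on chromosome 17 of GRCm38, at 57203970 to 57228136, 34728380 to 34743882, 34856374 to 34862518 and 34862604 to 34898265. *C1ra* (ENSMUSG00000055172) and *C1s1* (ENSMUSG00000038521) lie on chromosome 6, at 124512405 to 124523443 and 124530345 to 124542359, with 6901 bases between them. *Serping1* (ENSMUSG00000023224) lies on chromosome 2 at 84765387 to 84775444. All 7 are protein-coding genes, and the values below count read pairs assigned to their exons. The RefSeq table of promoters (GRCm38.p6) held an entry for 3 of the 7, *C1ra*, *C1s1* and *C3*. The entries of all 3 genes were read. *C1ra* and *C1s1* are transcribed towards each other and varied most alike from sample to sample, with *C3* next. Each sequence runs 5′ to 3′ from 250 bases before the RefSeq start to 50 after it. For *C1ra* that start lies 216 bases inside the GENCODE gene, and for *C1s1* the outermost of its starts is shown. All letters are in lower case, since no motif matched.
*C1ra*, chr6:124512371-124512670, plus strand: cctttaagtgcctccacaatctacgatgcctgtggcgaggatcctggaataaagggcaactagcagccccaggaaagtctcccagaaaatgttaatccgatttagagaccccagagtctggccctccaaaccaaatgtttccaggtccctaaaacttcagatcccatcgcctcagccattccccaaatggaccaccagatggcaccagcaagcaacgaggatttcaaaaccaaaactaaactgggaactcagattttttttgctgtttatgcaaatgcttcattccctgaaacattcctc
*C1s1*, chr6:124542310-124542609, minus strand: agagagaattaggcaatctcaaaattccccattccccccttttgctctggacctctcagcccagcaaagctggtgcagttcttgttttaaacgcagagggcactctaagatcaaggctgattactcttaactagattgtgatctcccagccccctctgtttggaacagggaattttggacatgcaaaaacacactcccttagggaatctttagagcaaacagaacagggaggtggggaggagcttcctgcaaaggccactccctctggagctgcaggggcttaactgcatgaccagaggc
*C3*, chr17:57228087-57228386, minus strand: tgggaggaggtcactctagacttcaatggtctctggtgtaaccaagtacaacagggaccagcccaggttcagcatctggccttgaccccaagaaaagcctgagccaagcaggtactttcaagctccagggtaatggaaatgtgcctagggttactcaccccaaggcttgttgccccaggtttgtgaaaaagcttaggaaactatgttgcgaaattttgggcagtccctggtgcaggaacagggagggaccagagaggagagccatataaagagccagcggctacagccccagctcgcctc
The motifs searched on both strands were the core of the interferon-stimulated response element (a pair of GAAA repeats with any 2 bases between them) and the NF-kB site. None of the 3 sequences held either of them. Of 32851 RefSeq promoters of the same length, 3.44% held the response element core and 8.46% the NF-kB site. The absence of a match says only that these letters are not in these windows.

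Total counts per sample were between 14253416 and 18443329, and 3 counts, taken as the least that can be shown, came to 0.163 to 0.210 CPM (counts scaled to library size), which allows for counting error alone. *Trex1* had 0 counts in every sample, but it overlaps *Atrip*, and counting tools by default drop read pairs that match several genes, so this does not check the genotype. Control replicate 1 differed from the other samples of every tissue in *Xist* and *Ddx3y*, genes of the X and Y chromosomes. It had 3060 to 13811 counts of *Xist* and 0 to 3 of *Ddx3y*, where all others had at most 20 and at least 825. No SN-011 sample had this pattern, so the compared groups were not balanced in it, and its part was not tested. Only 11546 genes were detected in SN-011 replicate 2 of the muscle, where all others had 19798 or more. Values are given without these samples where they change a result. Markers of cardiac muscle, gastric epithelium, skeletal muscle and keratins were each highest in the tissue of that label. In bulk tissue, fewer cells of a type and less RNA per cell cannot be told apart.

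Counts of several members can be affected by neighbouring or near-identical genes. *Cfb* ends the *C2*–*Cfb* pair, with 85 bases between the genes, and 79.5% of its exon bases and 42.8% of those of *C2* are also exons of *Gm20547*, a readthrough gene on the same strand. *Gm20547* had 0 counts in all 24 samples. By the same default, the counts of *Cfb* and *C2* may come mainly from their remaining exons and their levels be understated, in every sample alike. The levels per kb below divide by all exon bases, so the place of *Cfb* and *C2* among the members is uncertain. *C4b*, *C1ra* and *C1s1* have paralogs, *C4a*, *C1rb* and *C1s2*, which share 8.26%, 26.3% and 2.86% of the 150-base windows of the longest member transcript. The paralogs had 0 to 107, 0 to 27 and 0 to 15 counts, at most 3.09%, 1.39% and 0.907% of the sum with their member. *C1s1* also shares 18.4% of its exon bases with the antisense gene *Gm16567* (0 counts), and whether counting used strand is not given in the sources used here.

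**Figure D1:**
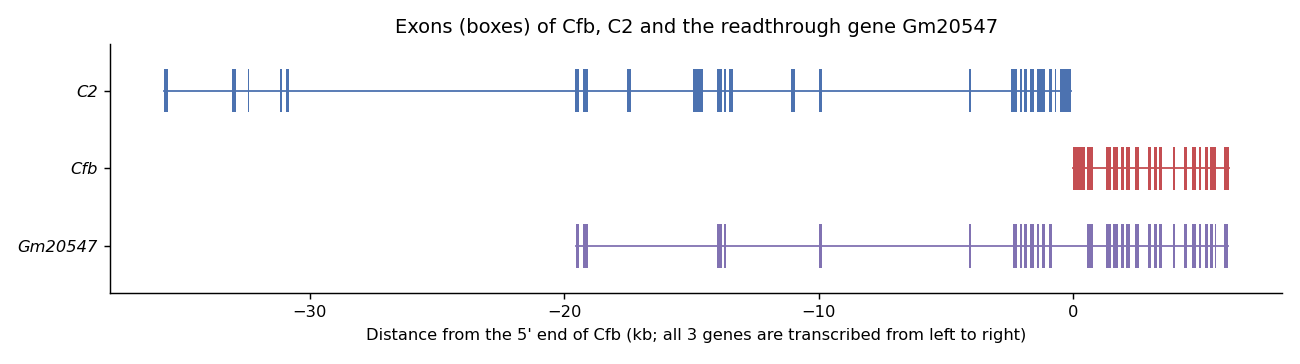
Exons (boxes) of *Gm20547*, *Cfb* and *C2* along the distance from the 5′ end of *Cfb*, in kb. The exons of *Gm20547* coincide with 79.5% of the exon bases of *Cfb* and 42.8% of those of *C2*, while the first exon of *Cfb* has no counterpart in it.

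In control mice *C3*, *C4b* and *Serping1* were called higher in the heart than in each of the other tissues, and the other members were not. Levels were compared between tissues with CPM scaled over all 24 samples by TMM, and between genes only per kb of exon. In the heart, *Serping1* had 237 ± 50.0 CPM per kb (SD, n = 3 per group here and below), *C3* had 186 ± 60.5 and *C4b* had 78.2 ± 14.1. The proteases *C1s1* and *C1ra* followed, at 27.9 ± 5.87 and 25.6 ± 5.80 CPM per kb, and *C2* had 7.54 ± 1.69 and *Cfb* 0.808 ± 0.136. Thus mRNA for the C1 inhibitor exceeded mRNA for the proteases it blocks. Within each sample, *Serping1* had 8.03 to 9.27 times as much signal per length as *C1s1* in the heart controls, 2.41 to 5.11 times in the stomach, 3.39 to 4.0 times in the muscle and 2.10 to 3.19 times in the tongue. The ranges of heart and the other tissues did not overlap. *Serping1* and then *C3* were highest per length in all 4 tissues, although the ranges of the pair overlapped in each.

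*C3*, the protein on which all pathways of complement converge, had 956 ± 311 CPM in the heart controls, 339 ± 54.6 in the muscle, 240 ± 151 in the tongue and 178 ± 94.9 in the stomach. The heart exceeded the stomach by 2.43 on the log2 scale (standard error 0.44, adjusted p = 0.000154), the tongue by 2.00 (0.43, adjusted p = 0.00141) and the muscle by 1.5 (0.42, adjusted p = 0.00941). Adjusted p-values here and below are from the quasi-likelihood test of edgeR, by Benjamini and Hochberg's method over all genes tested. The other 3 tissues did not separate in this order, where the nearest was the stomach against the muscle (−0.93, 0.42, adjusted p = 0.0687). *Serping1* followed the same order at the top, with 552 ± 116 CPM in the heart against 182 ± 29.0 in the muscle, 171 ± 73.1 in the tongue and 133 ± 48.8 in the stomach. *C4b* had 445 ± 80.2 CPM in the heart, 200 ± 22.2 in the muscle, 137 ± 92.2 in the tongue and 132 ± 48.2 in the stomach. For both genes the heart passed the test against each of the other tissues, and no other pair did.

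The proteases were more even across the tissues. *C1s1* had 91.3 ± 30.5 CPM in the tongue, 87.4 ± 18.4 in the heart, 65.4 ± 6.06 in the muscle and 55.4 ± 11.4 in the stomach, and only tongue against stomach passed (stomach lower by 0.72 on the log2 scale, standard error 0.27, adjusted p = 0.0408). Heart against stomach (0.66, 0.27, adjusted p = 0.0544) missed the threshold and passed in 7 of the 24 fits with a sample left out. *C1ra* had 76.4 ± 17.3 CPM in the heart, 54.7 ± 17.2 in the tongue, 50.3 ± 0.690 in the muscle and 34.6 ± 8.64 in the stomach, and only heart against stomach passed (1.14, 0.33, adjusted p = 0.00891). *C2* had 29.2 ± 6.56 CPM in the heart, 23.6 ± 3.89 in the tongue, 15.3 ± 3.70 in the stomach and 14.9 ± 4.07 in the muscle. The heart passed against the stomach and the muscle. *Cfb* had 52, 30 and 51 counts in the heart controls, 24, 7 and 9 in those of the tongue, 6, 9 and 11 in those of the muscle and 0, 4 and 0 in those of the stomach. For this gene the stomach was called lower than each of the others. The fitted size of these differences depends on the prior count and is not given.

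In all, 6 of the 7 members were called higher in the heart than in the stomach, 4 than in the muscle and 3 than in the tongue, where 21%, 17% and 13.5% of all 19731 genes tested were called higher in the heart. Between the stomach and the tongue 2 members were called (36.9% of all genes in either direction), between the stomach and the muscle 1 (51.6%), and between the muscle and the tongue 0 (38.1%), with 1 at an unadjusted p under 0.05. With the replicate number as a block these became 3, 2 and 1. In leaving out each sample, *C3*, *C4b* and *Serping1* stayed higher in the heart than in the stomach and the tongue in all 24 fits. Against the muscle, the call of *C4b* was lost in 5 of the 24 fits (adjusted p up to 0.106), those without any 1 of the muscle controls or without heart control replicate 1 or 3, and that of *C2* in 3 (up to 0.0587). Heart against stomach, the call of *C2* was lost without stomach control replicate 2 (adjusted p = 0.0558). Stomach against tongue, those of *C1s1* and *Cfb* were lost in 4 and 3 fits, each without a stomach or a tongue control, and stomach against muscle, that of *Cfb* was lost without stomach control replicate 3. Without control replicate 1 of every tissue, an alternative chosen after seeing the data, all of these calls between the stomach and the tongue or the muscle were lost, and so was that of *C1ra* for the heart against the stomach (adjusted p = 0.0805). With library size alone in place of TMM, all 7 members were called higher in the heart than in the muscle.

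**Figure D2:**
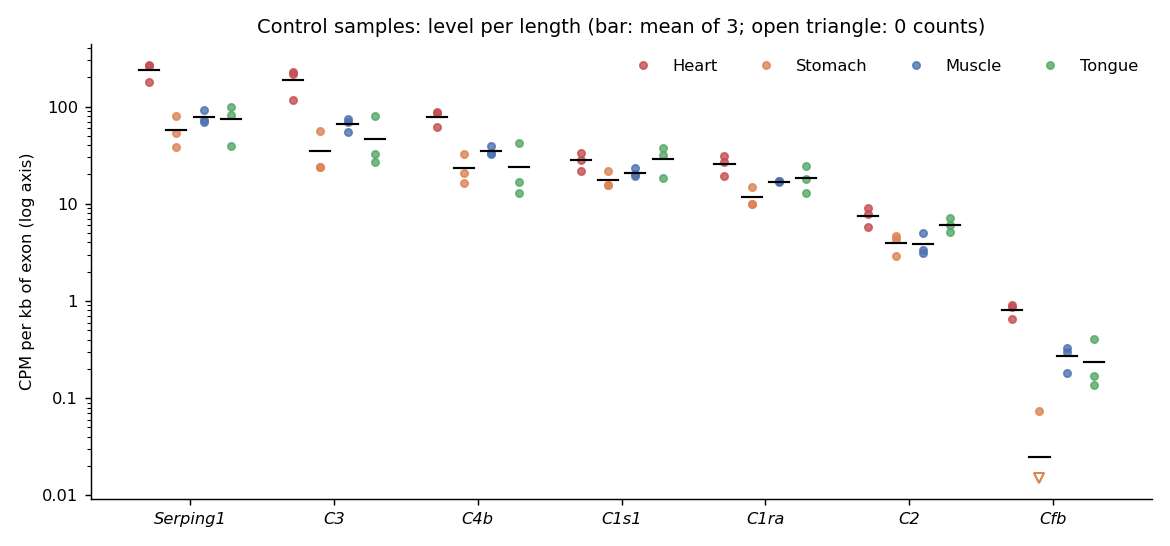
Level per length of each member in the control samples, in CPM per kb of exon on a log axis, with points for the 3 samples of a tissue and a bar for their mean. *Serping1*, *C3* and *C4b* sit highest and are highest in the heart (237, 186 and 78.2 CPM per kb), whereas *C1s1* in the heart (27.9) and the tongue (29.2) overlap.

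With SN-011, no member passed the test in any tissue. In the heart all 7 log2 fold changes (SN-011 minus control) were negative, with a median of −0.34. In the stomach 5 of 6 were positive, with a median of 0.69. The median was −0.01 in the muscle, with 3 of 6 positive, and −0.24 in the tongue, with 6 of 6 negative. The medians of all genes tested were −0.01, 0.00, −0.08 and −0.01. In the same samples the 12 interferon-stimulated genes of the list used for comparison had negative values in all 4 tissues, with medians of −0.48 (heart), −1.07 (stomach), −0.86 (muscle) and −0.81 (tongue). Thus the stomach, with the lowest median of the interferon-stimulated genes, had the highest median of the members. The other complement genes listed below had their highest median in the muscle (0.23), with 0.21 in the stomach. Of the 12 interferon-stimulated genes, only *Cxcl10* was called, in the heart (−1.49, edgeR, adjusted p = 0.0332). In the heart 0 of 7 members were called, where 0.328% of 16151 genes were called lower and 0.52% higher. The numbers in the stomach and the tongue were 0 of 6 members each, where 0% of 17031 and 16587 genes were called. In the muscle it was 0 of 6, where 0.00704% of 14198 genes were called in each direction. At an unadjusted p under 0.05, 1 member was lower in the heart (*Cfb*), where 11.6% of all genes were, and 1 was higher in the stomach (*C3*), where 13.2% were, with 0 in the muscle (5.8% lower and 8.96% higher) and 0 in the tongue (7.33% and 5.17%). edgeR's exact test and DESeq2 each called *Cfb* in the heart and no member in the other tissues. In the heart they called 918 and 1361 genes in all, on the same 16151 genes.

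**Figure D3:**
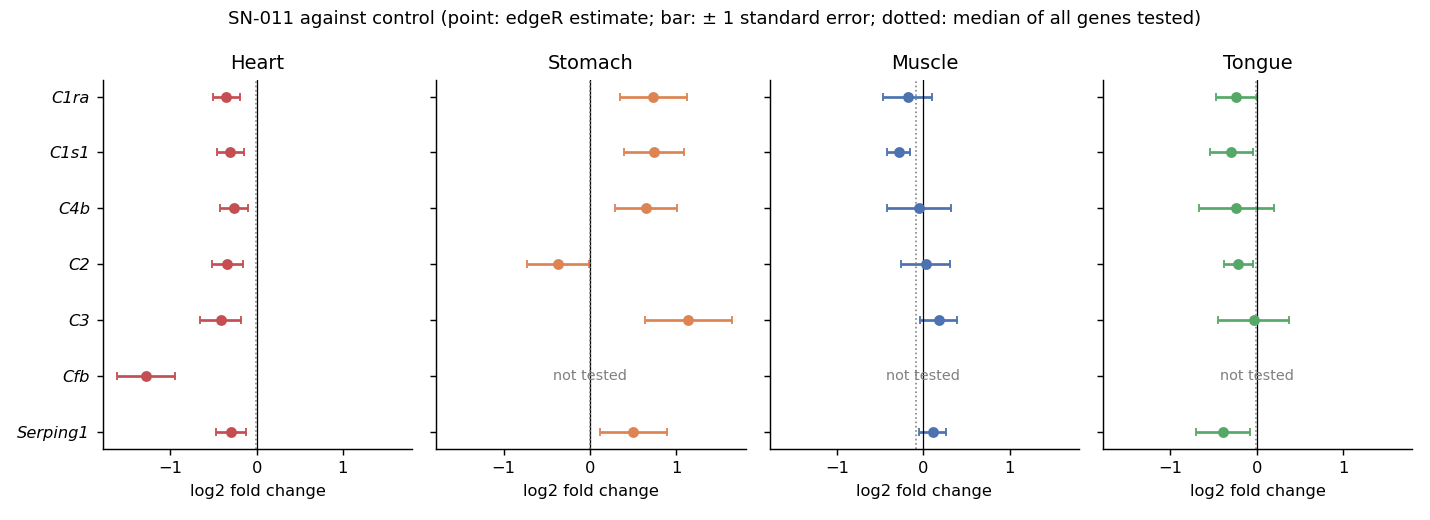
Log2 fold change (SN-011 minus control) of each member by tissue, with bars of 1 standard error and a dotted line at the median of all genes tested. All points lie left of 0 in the heart and in the tongue, where *C1s1* has −0.31 and −0.30. Of the 6 points in each of the others, 5 lie right of 0 in the stomach and 3 in the muscle. *Cfb* was tested in the heart alone.

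The proteases of the C1 complex had values of the same sign in each tissue. In the heart, *C1ra* had 87.8, 65.0 and 103 CPM in the 3 controls and 63.1, 70.7 and 66.8 CPM with SN-011. Control replicate 2 lay among the SN-011 samples, so the groups overlapped, with a log2 fold change of −0.35 (standard error 0.16, adjusted p = 0.240). *C1s1* showed the same arrangement in the heart, with 98.1, 77.0 and 117 CPM in the controls and 73.1, 79.1 and 84.3 with SN-011 (−0.31, 0.15, adjusted p = 0.282). In the stomach, *C1s1* had 57.0, 58.1 and 84.8 CPM in the controls and 152, 63.9 and 118 with SN-011. SN-011 replicate 2 lay below control replicate 3, with a log2 fold change of 0.74 (standard error 0.35, adjusted p = 0.232). *C1ra* in the stomach had 34.2, 35.6 and 55.2 CPM against 97.4, 34.9 and 75.9, with SN-011 replicate 2 at the level of the controls (0.74, 0.38, adjusted p = 0.271).

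In the muscle, *C1s1* had 37.5, 38.4 and 43.0 CPM in the controls and 31.6, 30.1 and 35.8 with SN-011. These groups did not overlap, as for 19.8% of all genes tested in the muscle in that direction. The fitted value was −0.28 (standard error 0.13, adjusted p = 0.380), and by exact permutation of the samples p was 0.1, the smallest that 3 against 3 allow. *C1ra* had 31.5, 29.9 and 30.1 CPM in the muscle controls and 31.8, 15.8 and 33.2 with SN-011, where the low value is that of replicate 2. Its log2 fold change was −0.18 with that sample and 0.09 without it. In the tongue both proteases had overlapping groups, with log2 fold changes of −0.24 for *C1ra* and −0.30 for *C1s1* (adjusted p = 0.681 and 0.622). Per length, *C1s1* had 1.09 ± 0.03 times the signal of *C1ra* in the heart controls and 1.12 ± 0.07 times with SN-011, and 1.54 ± 0.06 and 1.57 ± 0.15 times in the stomach. For the muscle the ratio was 1.24 ± 0.11 and 1.26 ± 0.48, and for the tongue 1.61 ± 0.42 and 1.53 ± 0.11, so it varied most in the muscle with SN-011, from 0.947 to 1.81.

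Of the substrates of C1s, *C4b* had 538, 397 and 554 CPM in the heart controls and 400, 459 and 382 with SN-011 (log2 fold change −0.26, standard error 0.16, adjusted p = 0.370). In the stomach it had 217, 110 and 148 CPM in the controls and 324, 173 and 245 with SN-011. SN-011 replicate 2 fell within the range of the controls (0.65, 0.36, adjusted p = 0.297). In the muscle *C4b* had 140, 114 and 110 CPM against 151, 55.9 and 145, so that replicate 2 alone was low and the log2 fold change went from −0.05 to 0.28 without it (adjusted p = 0.186). In the tongue it had 290, 110 and 86.2 CPM in the controls and 118, 128 and 168 with SN-011. Control replicate 1 stood above the rest, and without it the log2 fold change went from −0.24 to 0.49 (adjusted p = 0.131).

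*C2* was the member that did not follow the others in the stomach. It had 21.1, 13.3 and 20.8 CPM in the stomach controls and 16.8, 8.44 and 17.4 with SN-011, with a log2 fold change of −0.37 (standard error 0.36, adjusted p = 0.549). In the heart *C2* had 33.7, 24.9 and 39.0 CPM against 23.0, 24.5 and 29.9 (−0.34, 0.18, adjusted p = 0.312). Its values were 0.03 in the muscle and −0.21 in the tongue, with overlapping groups in both.

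*C3* had the largest log2 fold change of the members other than *Cfb* in the heart and the largest of those tested in the stomach, but the smallest in the tongue. In the heart it had 1239, 672 and 1285 CPM in the controls and 703, 859 and 837 with SN-011. Control replicate 2 was the lowest of the 6 samples, and the groups overlapped. On the log2 scale the difference was −0.41 (standard error 0.24, adjusted p = 0.342), and without that control it was −0.66 (adjusted p = 0.0470), which passed. The fit without that control called 787 heart genes in all. In the stomach *C3* had 142, 148 and 356 CPM in the controls and 597, 240 and 590 with SN-011. Control replicate 3 exceeded SN-011 replicate 2, and the log2 fold change was 1.14 (standard error 0.50, unadjusted p = 0.0499, adjusted p = 0.203). Over all alternatives and samples left out it stayed positive in the stomach, between 0.89 and 1.69, with an adjusted p of 0.0806 to 0.485.

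In the muscle *C3* had 238, 168 and 211 CPM in the controls and 249, 175 and 274 with SN-011 (0.18, 0.21, adjusted p = 0.745). In the tongue it had 495, 194 and 165 CPM in the controls and 231, 281 and 320 with SN-011. All SN-011 samples lay between control replicate 1 and the other controls. On the log2 scale this gave −0.04 (standard error 0.41, adjusted p = 0.976), and without control replicate 1 it was 0.63 with an adjusted p of 0.0453, so that the direction and the call in the tongue rest on 1 sample. The fit without that sample called 2135 tongue genes in all, so the call was not particular to *C3*.

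*Cfb* was tested in the heart alone, since elsewhere its counts did not pass the filter on low values. In the heart it had 52, 30 and 51 counts in the controls, or 2.83, 2.07 and 2.73 CPM, and 13, 19 and 16 counts with SN-011, or 0.873, 1.25 and 1.01 CPM. All SN-011 samples lay below all controls, as for 13.1% of all genes tested in the heart in that direction. The log2 fold change of −1.28 (standard error 0.34) was larger in size than that of any other member in any tissue where it was tested, and the adjusted p was 0.0922 with the quasi-likelihood test, 0.0326 with edgeR's exact test and 0.0483 with DESeq2. The exact test and DESeq2 called 918 and 1361 heart genes in all. Over all alternatives and samples left out the log2 fold change of *Cfb* stayed between −1.44 and −1.16, with an adjusted p of up to 0.904. In the tongue *Cfb* had 24, 7 and 9 counts in the controls and 0, 1 and 3 with SN-011, again without overlap, as 8.38% of tongue genes tested did in that direction. In the stomach the order was the opposite, with 0, 4 and 0 counts in the controls and 15, 6 and 6 with SN-011. Of stomach genes tested, 17.8% did not overlap in that direction. In the muscle it had 6, 9 and 11 counts against 5, 0 and 10, which overlapped. Most of these counts are near the floor of 3 per sample.

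*Serping1*, the inhibitor, had values of the same sign as both proteases in 3 of the 4 tissues and of the opposite sign in the muscle. In the heart it had 676, 470 and 699 CPM in the controls and 477, 478 and 544 with SN-011 (log2 fold change −0.30, standard error 0.17, adjusted p = 0.340). Control replicate 2 was again the lowest sample. In the stomach it had 217, 107 and 152 CPM against 313, 136 and 226 (0.50, 0.39, adjusted p = 0.454). In the tongue it had 278, 223 and 107 CPM against 145, 162 and 157, which lay within the range of the controls (−0.39, 0.32, adjusted p = 0.610). In the muscle it had 106, 96.8 and 128 CPM against 128, 100 and 128 (0.11, 0.16, adjusted p = 0.792). There *Serping1* had 3.39 to 4.0 times the signal of *C1s1* per length in the controls and 4.48 to 5.44 times with SN-011, without overlap. The muscle groups of *C1s1* alone did not overlap either. Of all genes tested in the muscle, 19.8% were apart and lower and 14.7% apart and higher. No test was run on the ratio, and 0.1 is the smallest permutation p that these samples allow. In the heart that ratio was 8.50 ± 0.67 and 8.53 ± 0.35.

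**Figure D4:**
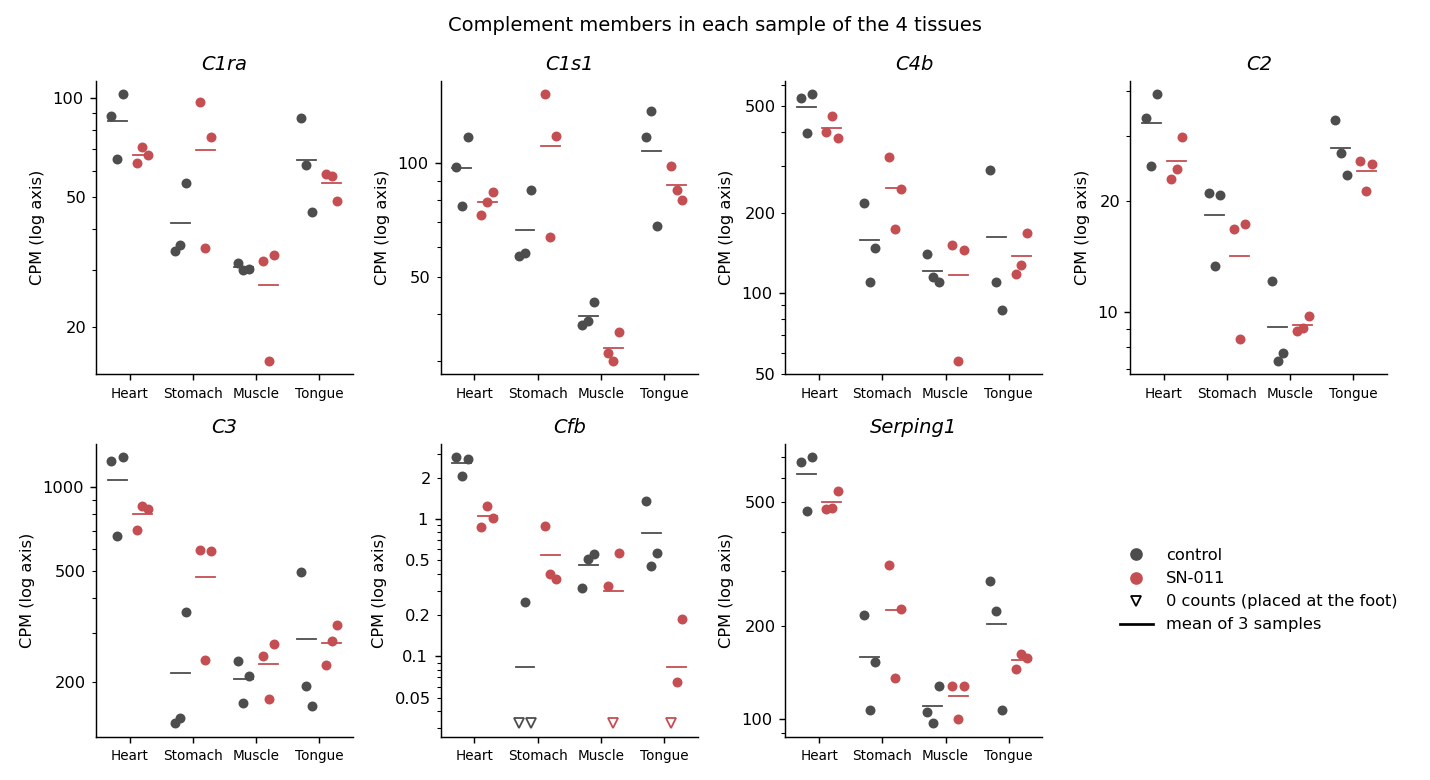
Level of each member in every sample, in CPM scaled within each tissue on a log axis, with a bar for the mean of 3 samples. Levels of different tissues are scaled separately and are not compared here. In the heart, control replicate 2 is the lowest control for every member and lies below the highest SN-011 sample for every member except *Cfb*. In the stomach, SN-011 replicate 2 is the lowest of its group for every member except *Cfb*.

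Whether the change with SN-011 differed between tissues was tested in the joint fit. No member passed in any of the 6 pairs of tissues, where 2.01% of all genes did for the heart against the stomach, 6.95% for the stomach against the muscle and 0.821% for the stomach against the tongue, with 0.00507% for the heart against the muscle, 0% for the heart against the tongue and 0.0355% for the muscle against the tongue. At an unadjusted p under 0.05 there were 4 members for the heart against the stomach, where 17% of all genes were, 2 for the stomach against the muscle (24.1%), 2 for the stomach against the tongue (15.4%) and 0 for the heart against the muscle (6.6%), the heart against the tongue (2.83%) and the muscle against the tongue (8.1%). The change of *C3* in the heart was lower than that in the stomach by 1.54 on the log2 scale (edgeR, standard error 0.59, adjusted p = 0.177). The same difference was 1.02 for *C1s1* (0.38, adjusted p = 0.164) and 1.06 for *C1ra* (0.47, adjusted p = 0.249). The change of *C1s1* in the stomach exceeded that in the muscle by 1.08 (0.38, adjusted p = 0.0875). For the last, and for *C3* and *C1s1* in the heart against the stomach, 1 or 2 of the 24 fits with a sample left out passed, and these were fits without stomach control replicate 3 or stomach SN-011 replicate 2. For *Cfb* the stomach against the tongue had an adjusted p of 0.0683, and passed in 3 of the 24 fits, without muscle SN-011 replicate 2 (0.0221), stomach SN-011 replicate 2 or stomach control replicate 2. Its difference for the stomach against the muscle passed in 1, without the last of these samples.

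The composition of the samples differed along with these values. In the stomach, the 6 gastric epithelium markers (*Tff1*, *Gkn1*, *Gkn2*, *Atp4a*, *Atp4b*, *Muc5ac*) summed to 81743, 40292 and 22918 CPM in the controls and 4548, 28569 and 19969 with SN-011. *C3* was highest in the 2 samples in which this sum was lowest, and lowest in the 2 in which it was highest. The 5 keratins of stratified epithelium summed to 202, 169 and 89.1 CPM in the stomach controls and 1175, 361 and 717 with SN-011, without overlap. The 8 fibroblast markers summed to 1430, 983 and 1363 CPM and to 2885, 821 and 2056, the same order of samples within the SN-011 group as for *C3*, *C4b*, *C1ra*, *C1s1* and *Serping1*. The 10 macrophage markers summed to 724, 466 and 593 CPM and to 1065, 377 and 784. The part of these in the stomach values was not tested.

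In the tongue, the keratins summed to 11073, 35228 and 50017 CPM in the controls and 20855, 21314 and 13931 with SN-011. Control replicate 1, with the least keratin, had the most *C3* and *C4b*. It also had the most fibroblast signal, 1120 CPM against 636 and 478 in the other controls and 554 to 705 with SN-011. Gastric markers reached 1293 and 1268 CPM in tongue control replicates 2 and 3 and 6.93 to 36.7 in the other tongue samples. They also summed to 968 CPM in heart control replicate 2, against 2.69 to 103 in the other heart samples, and to 707 and 313 CPM in muscle control replicates 2 and 3, against 0 to 49.3 in the other muscle samples. Heart control replicate 2 is the sample on which the overlap of the heart groups and the call of *C3* there turn. In the heart, fibroblast markers summed to 3442, 2404 and 2554 CPM in the controls and 1761, 1684 and 1869 with SN-011, without overlap, and 1 of the 8 was called lower. Their median log2 fold change was −0.61 (heart), 0.60 (stomach), −0.82 (muscle) and −0.27 (tongue). In the muscle, where this median was the lowest, that of the complement members was −0.01. The hepatocyte markers summed to 1.23 to 75.3 CPM (heart), 0 to 66.3 (muscle), 6.41 to 255 (tongue) and 437 to 1085 (stomach), and none of the 6 was at 0 in all samples of a group. The highest heart value was that of control replicate 2. In the stomach they summed to 893 to 1085 CPM in the controls and 437 to 774 with SN-011, without overlap. In the muscle the sums were 29.3 to 66.3 and 0 to 23.9 CPM, also without overlap. Their median log2 fold change was 0.27 in the stomach and −1.91 in the muscle. The part of these in the members' values was not tested.

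**Figure D5:**
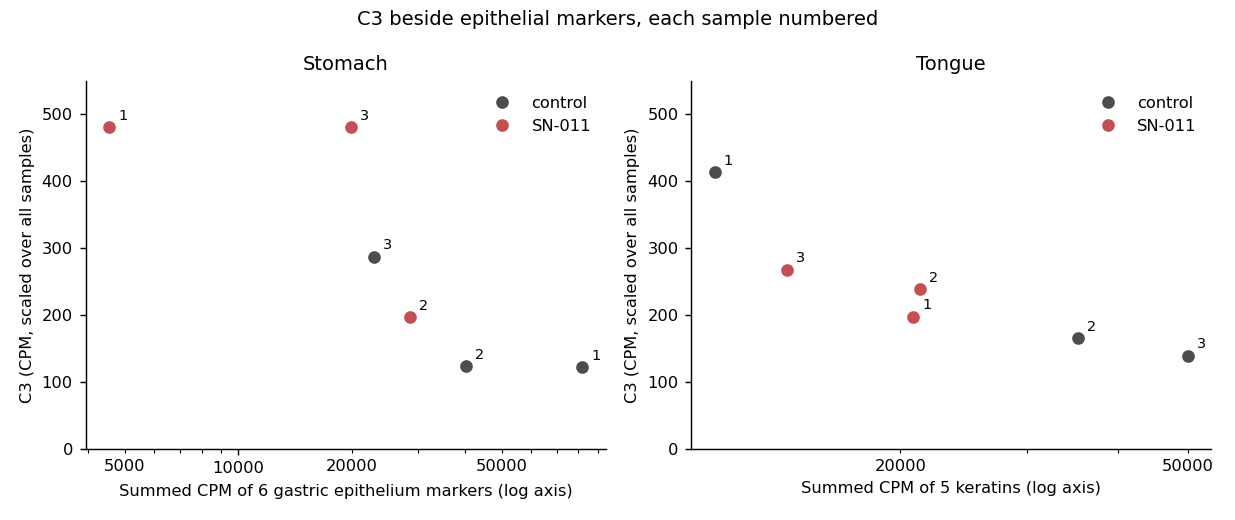
*C3* in each numbered sample, in CPM scaled over all samples, against the summed CPM of 6 gastric markers in the stomach (left) and of 5 keratins in the tongue (right), each on a log axis. Stomach SN-011 replicate 1 has the least gastric signal (4548 CPM) and tongue control replicate 1 the least keratin (11073 CPM), and both stand at the top for *C3*.

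The other genes of the complement system were taken from lists by role. Outside the 7 members, the listed genes tested numbered 34 (heart), 37 (stomach), 27 (muscle) and 33 (tongue), and 0 were called in edgeR. At an unadjusted p under 0.05, 3 were higher and 5 lower in the heart, where 10.8% and 11.6% of all genes were. For the stomach these were 7 and 5 (13.2% and 11.4%), for the muscle 3 and 1 (8.96% and 5.8%) and for the tongue 0 and 3 (5.17% and 7.33%). Median log2 fold changes were −0.11, 0.21, 0.23 and −0.13. The values below are for genes whose groups did not overlap, a choice made on these same samples. Of the 34 genes in the heart, 4 were apart and higher and 2 lower, where 14.1% and 13.1% of all genes were. These numbers were 5 and 5 of 37 in the stomach (17.8% and 15.2%) and 6 and 6 of 27 in the muscle (14.7% and 19.8%). In the tongue they were 1 and 3 of 33 (9.4% and 8.38%).

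Among genes of initiation, *Masp1*, a protease of the lectin pathway, had 26.7 to 32.2 CPM in the heart controls and 37.9 to 44.4 with SN-011 (0.49, standard error 0.12, adjusted p = 0.0876). *Colec11*, a collectin, had 22.5 to 23.6 and 31.4 to 38.4 CPM (0.55, 0.13, adjusted p = 0.0758). *Colec12*, a scavenger receptor with a collectin domain, had 24.5 to 32.0 and 18.1 to 21.3 CPM (−0.55, 0.15, adjusted p = 0.0936). *Masp1* and *Colec11* thus had positive values in the heart, where the C1 proteases had negative ones. Of the 9 listed initiation genes tested there, 6 had negative values, and the median of the 9 was −0.17. In the muscle, *C1qb*, a chain of C1q made by macrophages, had 90.0 to 103 CPM in the controls and 132 to 142 with SN-011 (0.54, 0.11, adjusted p = 0.132). Of the other chains, *C1qa* had a value of 0.34, also without overlap (adjusted p = 0.343), and *C1qc* one of −0.05 with overlapping groups (adjusted p = 0.913). *C4a*, the paralog of *C4b*, had 4, 33 and 10 counts in the stomach controls and 82, 34 and 107 with SN-011 (2.21, 0.77, adjusted p = 0.138), on the same side as *C4b*.

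The amplification and terminal genes were on the upper side in the stomach, where 5 of 5 tested had positive values, with a median of 0.75. *Cfp*, or properdin, which stabilizes the alternative convertase, had 18.3 to 21.3 CPM in the stomach controls and 24.6 to 38.1 with SN-011 (0.74, 0.25, adjusted p = 0.131), and 22.1 to 33.8 against 37.8 to 40.0 in the muscle (0.56, 0.19, adjusted p = 0.272). *C7*, part of the membrane attack complex, had 0 to 0.749 CPM in the stomach controls and 1.12 to 6.48 with SN-011 (adjusted p = 0.117).

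Of the regulators, *Clu*, or clusterin, which binds the terminal complex, had 1644 to 3027 CPM in the stomach controls and 299 to 739 with SN-011 (log2 fold change −2.17, standard error 0.49, adjusted p = 0.0747). *Cfi*, the protease that cuts C3b and C4b, had 107 to 212 and 11.1 to 59.3 CPM (−2.20, 0.57, adjusted p = 0.0898). These are the opposite of *C3* and *C4b* in the same samples. In the tongue *Clu* had 46.9 to 174 CPM and 34.1 to 44.7 (−1.46, 0.42, adjusted p = 0.297). *Cd59a*, a membrane inhibitor of the terminal complex, had 46.1 to 67.7 CPM in the heart controls and 73.7 to 86.2 with SN-011 (0.44, 0.15, adjusted p = 0.145). Among receptors, *Itgax*, a chain of complement receptor 4, had 18.1 to 20.5 CPM in the stomach controls and 3.69 to 11.1 with SN-011 (−1.24, 0.41, adjusted p = 0.129), and *C5ar1*, the receptor of C5a, had 4.69 to 5.17 and 6.53 to 8.89 CPM in the muscle (0.65, 0.29, adjusted p = 0.363). The other genes of this choice were *Itgam* (heart), *Csmd1* and *C5ar2* (stomach), *Cd59a* (muscle) and *C1qbp* (muscle and tongue) with positive values, and *C1rl*, *Colec12*, *C8g*, *Cd93*, *Cd55* and *Cr1l* (muscle) and *Cd55* and *Susd4* (tongue) with negative ones, of −1.29 to 2.93 (groups apart and higher for 9.4% of all genes in the tongue) with an adjusted p of 0.126 to 0.765. The stomach values stand beside the shift in gastric markers given above, whose part was not tested.

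Genes of NF-kB and the acute phase had median log2 fold changes of −0.21 (heart), 0.82 (stomach), −0.13 (muscle) and −0.52 (tongue). Of these genes, 0 of 11 were called in the heart, the muscle and the tongue and 0 of 10 in the stomach. In the stomach, 6 of the 10 had SN-011 samples all above the controls, where 17.8% of all genes tested did. The largest values there were those of *Saa3* (3.80, adjusted p = 0.0674), *Hp* (2.98, adjusted p = 0.0669) and *Lcn2* (2.51, adjusted p = 0.0853), which encode acute-phase proteins. Elsewhere the largest values without overlap lay on both sides. In the heart they were those of *Lcn2* (1.49), *Socs3* (−1.09) and *Relb* (−0.71), and in the muscle *Lcn2* (2.62), *Cebpd* (2.36) and *Socs3* (−1.85). In the tongue they were those of *Saa3* (1.54), *Relb* (−0.67) and *Tnfaip3* (−0.60). The adjusted p of these genes outside the stomach was 0.0543 to 0.364. The list, like the members, had its highest median in the stomach, and a shared cause was not tested.

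After subtraction of each tissue's mean, the members varied alike over the 24 samples, which share libraries, tissues and treatment. On log2 CPM, Pearson's r was 0.89 for *C1ra* and *C1s1*, 0.83 for *C3* and *C1ra* and 0.79 for *C4b* and *Serping1*. *C2* was the least like the others, with r of 0.06 to 0.55. The genes most like *C3* among 19724 were *Ifi207* (0.92), *Heg1* (0.91) and *Ocrl* (0.88). Those of *C4b* were *Pld4*, *Kcnab2* and *Galnt18* (0.87 to 0.88), and those of *C1ra* were *Sirpa* (0.91), *Nckap1l* (0.91) and *Dcn* (0.90). For *C1s1* they were *Msn*, *Fgl2* and *Il10ra* (0.86 to 0.89), for *Serping1* *St6galnac4*, *Csf1r* and *Bgn* (0.86), for *C2* *Hcls1*, *Ighv1-26* and *Csnk1g1* (0.79 to 0.83), and for *Cfb* *Hcn4*, *Insrr* and *Gm29237* (0.86 to 0.90). *Dcn* is on the fibroblast list and *Csf1r* on the macrophage list.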

How the data were processed

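RNA-Seq of 4 tissues of *Trex1*-KO mice was analysed, with 3 control and 3 SN-011 samples per tissue. The authors deposited raw counts of read pairs per gene for each sample, without normalization. The submitters' processing notes name HISAT2, HTSeq and the mm10 build, whereas the methods of the study name Trimmomatic, hisat2 and featureCounts with unique pairs kept. Symbols and positions came from GENCODE M21 (GRCm38), which held 54495 of the 54532 identifiers.

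SN-011 was compared with control in each tissue by the quasi-likelihood test of edgeR 4.0.16 in R 4.3.3 after TMM scaling, on genes kept by filterByExpr at a count of 10 and a total of 15, with p-values adjusted by Benjamini and Hochberg over all genes tested and a threshold of 0.05. Levels and differences between tissues came from a joint fit of all 24 samples and 19731 genes. The tests were checked on simulated data. Single values were compared by two-sided exact permutation over the 20 relabellings, with 0.1 the smallest p. Alternatives used DESeq2 1.42.0, edgeR's exact test, other scalings and filters, added paralog counts and each sample left out. Figures were drawn with matplotlib 3.10.9 in Python 3.11.15.

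The members, gene lists, markers and motifs were chosen with earlier results of these data known. Beside the members, the text names genes of the complement and NF-kB lists, up to 3 per list and tissue. These are the genes of the largest change with no overlap between groups and at least 1 CPM in the higher group. Of the interferon-stimulated list only the gene called is named. Also named are the paralogs *C4a*, *C1rb* and *C1s2*, *Trex1*, and the 3 genes most like each member. Other genes were named after their values were seen. A further promoter motif is not reported here.

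Replicate numbers were not taken as pairs between treatments. Once group means were subtracted, same-numbered control and SN-011 samples correlated at a mean of −0.02 (heart), 0.06 (stomach), 0.04 (muscle) and −0.26 (tongue). Across tissues they correlated at over 0.1 in 13 of 18 control pairs and 5 of 18 SN-011 pairs, including all control pairs of the heart with the muscle (0.25 to 0.52) and of the muscle with the tongue (0.15 to 0.41), so the blocked counts are given beside those between tissues. Of samples labelled as replicates, no pair agreed within sampling noise.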

Additional observations from a re-analysis of the deposited data

Results flagged for a closer look

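For *Cfb*, every SN-011 sample lay below every control in the heart and the tongue, as for 13.1% and 8.38% of genes tested there. In the stomach every SN-011 sample lay above every control, as for 17.8%. *Cfb* was marked because these directions differ. The difference itself was tested in the joint fit and did not pass, with the change in the heart minus that in the stomach at −3.83 (standard error 1.35, adjusted p = 0.144) and that in the stomach minus that in the tongue at 5.67 (1.49, adjusted p = 0.0683) on the log2 scale. These sizes depend on the prior count, since 2 of the stomach controls and 1 of the tongue SN-011 samples had 0 counts, and the part of the fibroblast, gastric and keratin signals given in the report was not tested. *C4a* was marked because its SN-011 samples lay above the controls in the stomach (4, 33 and 10 counts against 82, 34 and 107) and below them in the muscle (8, 6 and 9 against 1, 0 and 5). In those directions 17.8% (stomach) and 19.8% (muscle) of all genes tested did not overlap. For *C4a* the difference between the stomach and the muscle passed, at 3.88 with a standard error of 1.08 (edgeR, adjusted p = 0.0349), where 6.95% of all genes passed. That test used the samples by which *C4a* was marked and is no independent evidence, the muscle counts are near the floor of 3, and the 0 is that of muscle SN-011 replicate 2, the sample with counts on the fewest genes.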

How the results depend on the processing

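The number of genes called depended on the method far more than the members did. In the heart it was 137, and 249 with library size alone, 1888 without a filter, 265 with at least 10 counts in every sample, 918 with edgeR's exact test, 1361 with DESeq2 and 1 in the joint fit, or from 1 (without SN-011 replicate 2) to 787 (without control replicate 2). For the stomach it was 0, and 1368 without a filter, 126 with at least 10 counts, 1835 with the exact test, 2389 with DESeq2 and 2738 in the joint fit, or 0 to 64 with a sample left out (64 without control replicate 1, 59 without SN-011 replicate 2). For the muscle it was 2, and 1 with DESeq2's size factors or library size alone, 110 without a filter, 75 with at least 10 counts, 479 with the exact test, 880 with DESeq2 and 474 in the joint fit, or from 0 to 1103 (without SN-011 replicate 2). For the tongue it was 0, and 18 without a filter, 253 with the exact test, 418 with DESeq2 and 4 in the joint fit, or from 0 to 2135 (without control replicate 1). Under all of these, members called stayed at 0 for the stomach and muscle. The heart had 1 with the exact test and with DESeq2 (*Cfb*) and 0 to 1 with a sample left out, as did the tongue (*C3*, without heart control replicate 2 and without tongue control replicate 1). The members' median kept its sign under every alternative run except in the muscle, and moved by less than 1 SD. Library size alone moved the median of all genes to −0.16 (heart), 0.18 (stomach), −0.31 (muscle) and 0.06 (tongue), and that of the members to −0.49, 0.90, −0.23 and −0.18.

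Some signs turned. In the muscle *C2* was −0.0152 with DESeq2's size factors and with DESeq2, −0.21 with library size alone, −0.017 with at least 10 counts and −0.0558 in the joint fit, and −0.12 to 0.285 with a sample left out. Library size alone also gave −0.044 for *C3* and −0.12 for *Serping1* there. With a muscle sample left out *C4b* was −0.28 to 0.285 and *C1ra* −0.35 to 0.090. In the tongue *C3* was 0.013 with library size alone, and −0.31 to 0.63 with a sample left out, where *C4b* was −0.54 to 0.49 and *C1ra* −0.45 to 0.032. *C1s1* in the heart against the tongue was −0.31 to 0.16 with a sample left out. The causes were not tested.

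Between control tissues, members called went from 4 to 7 for the heart against the muscle with library size alone, from 1 to 2 for the stomach against the muscle with that or without a filter, from 2 to 1 for the stomach against the tongue with library size alone or DESeq2's size factors, and from 0 to 3 and 1 for the muscle against the tongue with these. With a sample left out they were 2 to 4, 1 to 2, 0 to 3 and 0 to 2 for the same pairs in that order. Of the alternatives chosen after seeing the data, leaving out control replicate 1 of every tissue gave 0, 0 and 1 for the last 3 pairs, and leaving out muscle SN-011 replicate 2 gave 1 for the muscle against the tongue. For a difference in the change with SN-011, with a sample left out, 0 to 1 members passed for the heart against the stomach and the stomach against the muscle, and 0 to 2 for the stomach against the tongue (1 without muscle SN-011 replicate 2).

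When replicate numbers were fitted as a block, the genes called numbered 242 (heart), 181 (stomach), 0 (muscle) and 0 (tongue), and *C3* in the tongue was 0.15. The block across tissues gave 2 members for the stomach against the muscle, 3 for the stomach against the tongue and 1 for the muscle against the tongue, and changed no member's call within a tissue.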

Other observations

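The other marker lists gave no gene past the threshold in any tissue in edgeR. Median log2 fold changes ran from −0.67 (muscle) to 0.32 (stomach) for endothelial cells, −0.52 (stomach) to −0.11 (muscle) for T cells, −0.13 (tongue) to 0.28 (stomach and muscle) for macrophages, −5.10 (tongue) to 1.75 (stomach) for neutrophils and −1.03 (heart) to 0.72 (muscle) for adipocytes, of which 0 of 6 were tested in the tongue. Adipocyte markers, which include *Cfd*, the gene of complement factor D, summed to 1329, 16.3 and 397 CPM in the muscle controls and 1617, 236 and 1368 with SN-011. Tongue control replicate 3 had 314 CPM of the 5 neutrophil markers against 10.3 and 10.7 in the other controls and 6.10 to 11.5 with SN-011. In that sample *C3* (165 CPM scaled within the tongue), *C4b* (86.2) and *Serping1* (107) were at their lowest for the tongue. The part of these in the members' values was not tested.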
